A study of Homo sapiens with 9 samples.

Results

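The 39 protein-coding genes of the 4 human HOX clusters were followed in RNA-seq libraries of LNCaP:C4-2 prostate cancer cells that carried a control hairpin or 1 of 2 hairpins against METTL3. Members were chosen by symbol and found by Ensembl identifier among the 60675 genes of the 9 count files: 11 in HOXA, 10 in HOXB, 9 in HOXC and 9 in HOXD. Of these, 36 held enough counts to be tested among 19278 genes, and HOXB1, HOXD1 and HOXD12 did not.

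LNCaP:C4-2 is an established, androgen-independent line that stands for castrate-resistant disease. METTL3 is the catalytic subunit of the enzyme complex that writes m6A on RNA. Each of the 3 groups had 3 libraries: shScramble (a hairpin that targets no gene), shMETTL3 guide 2 (across exons 4 and 5) and shMETTL3 guide 1 (exon 5). All 3 groups carried an inducible lentiviral pLKO.1-puro construct, were selected in puromycin, were grown in phenol red-free medium with charcoal-stripped serum and received 1 µg/ml doxycycline for 6 days, although the titles name a vehicle. The sources used here do not say how many clones stand behind a group or whether the libraries came from separate cultures, so p-values measure the spread between these libraries, which may be technical.

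METTL3 itself had 922, 1010 and 753 counts in shScramble, 382, 415 and 349 with guide 2 and 837, 837 and 886 in the libraries labelled guide 1. Its level fell 1.93-fold with guide 2 (log2 fold change -0.95 ± 0.0687 SE, adjusted p = 2.97e-12 by edgeR's quasi-likelihood test) and was not called changed in the libraries labelled guide 1 (-0.08 ± 0.0633, adjusted p = 0.251). The latter are therefore named by their label throughout.

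HOX genes encode homeodomain transcription factors that give cells of the embryo their place along the head-to-tail axis. They lie in numerical order within each cluster, and low numbers are switched on earlier and closer to the head than high numbers. Adult tissues keep part of this code: the posterior members, of which HOXB13 is the best known in prostate, mark the hindgut, limb ends and urogenital tract. Polycomb complexes keep silent clusters shut, trithorax and MLL complexes keep active ones open, retinoic acid switches on the low-numbered end, and PBX, MEIS and PKNOX proteins (the TALE cofactors) bind DNA together with HOX proteins.

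On GRCh38, with the coordinates of the count files, HOXA lay on the minus strand at chr7:27092993-27200106 (107 kb), HOXB on the minus strand at chr17:48528526-48729178 (201 kb), HOXC on the plus strand at chr12:53938765-54056030 (117 kb) and HOXD on the plus strand at chr2:176092891-176190907 (98.0 kb). HOXB13 stood 98.4 kb from its nearest member, HOXB9, whereas HOXC12 stood 14.2 kb from HOXC11. Several members overlap neighbours or antisense genes. With no strand setting stated for the counting, such reads cannot be assigned to 1 gene: 15 members shared no exon base with another gene, 18 shared at least 10%, and HOXA7 (62.5%), HOXC5 (59.9%), HOXD1 (57.4%), HOXD3 (73.0%) and HOXD4 (80.5%) shared most of theirs.

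Promoter sequences (RefSeq, GRCh38.p14, from 250 bases before the listed start to 50 after it) were available for 20 of the 39 members. HOXB1 was the only HOXB member among them. HOXC4 and HOXC5, the only HOXC members, had the same window, so the windows describe mostly HOXA and HOXD. The 20 windows held a median of 22.5 CpG dinucleotides (4 to 44), against 14.0 in all 27305 promoters of the same length, with a like GC content (median 58.0% against 58.3%). Counting both strands, the CCAAT box (CCAAT) was found in 85.0% of the member windows and in 35.7% of all windows. The TATA box (TATAAA) was found in 20.0% against 12% and the HOX-PBX composite site (TGATTNAT) in 10.0% against 2.94%. The windows of 4 members whose levels differed widely between the groups are shown 5′ to 3′ with each CpG in capitals: HOXD8 and HOXD10, which lie close together in HOXD, and the posterior paralogues HOXA13 and HOXD13. HOXA13 has the most CpG of the 20 windows. The RefSeq start of HOXD10 lies 7988 bases inside the gene as the count files draw it. Such offsets were also large for HOXA9 (9643 bases), HOXC5 (15965), HOXD3 (20695) and some other members.
HOXD8, chr2:176129455-176129754, plus strand, 34 CpG: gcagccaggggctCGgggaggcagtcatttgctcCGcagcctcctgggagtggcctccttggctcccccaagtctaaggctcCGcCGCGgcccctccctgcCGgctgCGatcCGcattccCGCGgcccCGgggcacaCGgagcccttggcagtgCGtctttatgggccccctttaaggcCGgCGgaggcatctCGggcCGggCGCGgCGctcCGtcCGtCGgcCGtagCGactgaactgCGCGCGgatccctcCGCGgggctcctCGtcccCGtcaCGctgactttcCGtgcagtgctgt
HOXD10, chr2:176116528-176116827, plus strand, 23 CpG: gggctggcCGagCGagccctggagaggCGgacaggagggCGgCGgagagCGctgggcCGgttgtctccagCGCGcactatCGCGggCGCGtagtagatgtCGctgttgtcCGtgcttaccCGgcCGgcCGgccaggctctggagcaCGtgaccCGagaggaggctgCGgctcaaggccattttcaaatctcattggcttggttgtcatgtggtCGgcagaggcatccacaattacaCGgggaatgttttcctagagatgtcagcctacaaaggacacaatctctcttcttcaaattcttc
HOXA13, chr7:27200042-27200341, minus strand, 44 CpG: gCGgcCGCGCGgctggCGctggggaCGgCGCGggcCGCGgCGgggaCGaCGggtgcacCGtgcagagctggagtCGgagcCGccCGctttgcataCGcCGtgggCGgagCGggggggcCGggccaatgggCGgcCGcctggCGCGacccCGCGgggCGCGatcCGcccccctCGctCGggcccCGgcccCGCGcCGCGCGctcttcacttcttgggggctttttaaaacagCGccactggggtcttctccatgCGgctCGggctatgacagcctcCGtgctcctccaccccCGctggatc
HOXD13, chr2:176092471-176092770, plus strand, 24 CpG: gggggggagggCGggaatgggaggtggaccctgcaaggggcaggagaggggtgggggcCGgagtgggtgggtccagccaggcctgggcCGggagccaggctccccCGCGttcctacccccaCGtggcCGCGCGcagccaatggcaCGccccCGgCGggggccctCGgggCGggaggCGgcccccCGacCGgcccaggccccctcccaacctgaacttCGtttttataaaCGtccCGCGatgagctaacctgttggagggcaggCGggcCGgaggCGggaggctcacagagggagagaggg

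Libraries held 21899501 to 30897639 counts, so 3 counts, taken as the floor, corresponded to 0.0942 to 0.136 CPM (counts scaled to library size and TMM factor). Fewer genes had a count with guide 2 (24884 to 26505) than in shScramble (28459 to 29586) or in the libraries labelled guide 1 (29193 to 29628). Correlations of log2 CPM across genes were 0.991 to 0.994 within groups and 0.901 to 0.974 between them. Of the luminal prostate markers other than HOXB13, the 15 genes summed to 3150 to 3200 CPM in shScramble, 3660 to 3740 with guide 2 and 1620 to 1670 in the libraries labelled guide 1. None of the 16 luminal markers was at the floor in any group. Of the 6 basal markers, KRT5, KRT14 and TP63 were at the floor in all 9 libraries. All 6 together summed to 51.0 to 60.5 CPM in shScramble, 66.3 to 69.0 with guide 2 and 35.5 to 40.9 in the libraries labelled guide 1.

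In shScramble, HOXB13 was by far the most abundant member per length, with 68.9 ± 2.48 RPKM (CPM divided by the exon length in kilobases, mean ± SD, n = 3), which was 43.2% of the summed RPKM of all members. HOXB9 followed with 11.5 ± 0.608 RPKM. HOXC6 (8.86 ± 0.448), HOXC13 (8.65 ± 0.470) and HOXB7 (8.59 ± 0.546) came next and did not differ beyond their spread. They were followed by HOXA5 (6.52 ± 0.392) and HOXC12 (6.29 ± 0.112), which did not differ beyond their spread, and HOXA10 (5.88 ± 0.247). The median member had 0.706 RPKM. HOXB1, HOXD3 and HOXD12 were at the floor in every shScramble library, and 28 members averaged at least 1 CPM. With guide 2, HOXB13 made up 57.2% of the summed RPKM, the median member had 0.396 RPKM, 20 members reached 1 CPM, and HOXD1 and HOXD4 also lay at the floor. In the libraries labelled guide 1, the order changed at the top: HOXB9 came first with 77.8 ± 3.05 RPKM, then HOXB13 with 41.3 ± 1.47, HOXA5 with 30.8 ± 1.08 and HOXD13 with 20.6 ± 1.08. The median member there had 5.32 RPKM, 33 members reached 1 CPM, and HOXB1 alone was at the floor, with 0 counts in all 9 libraries.

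**Figure D1:**
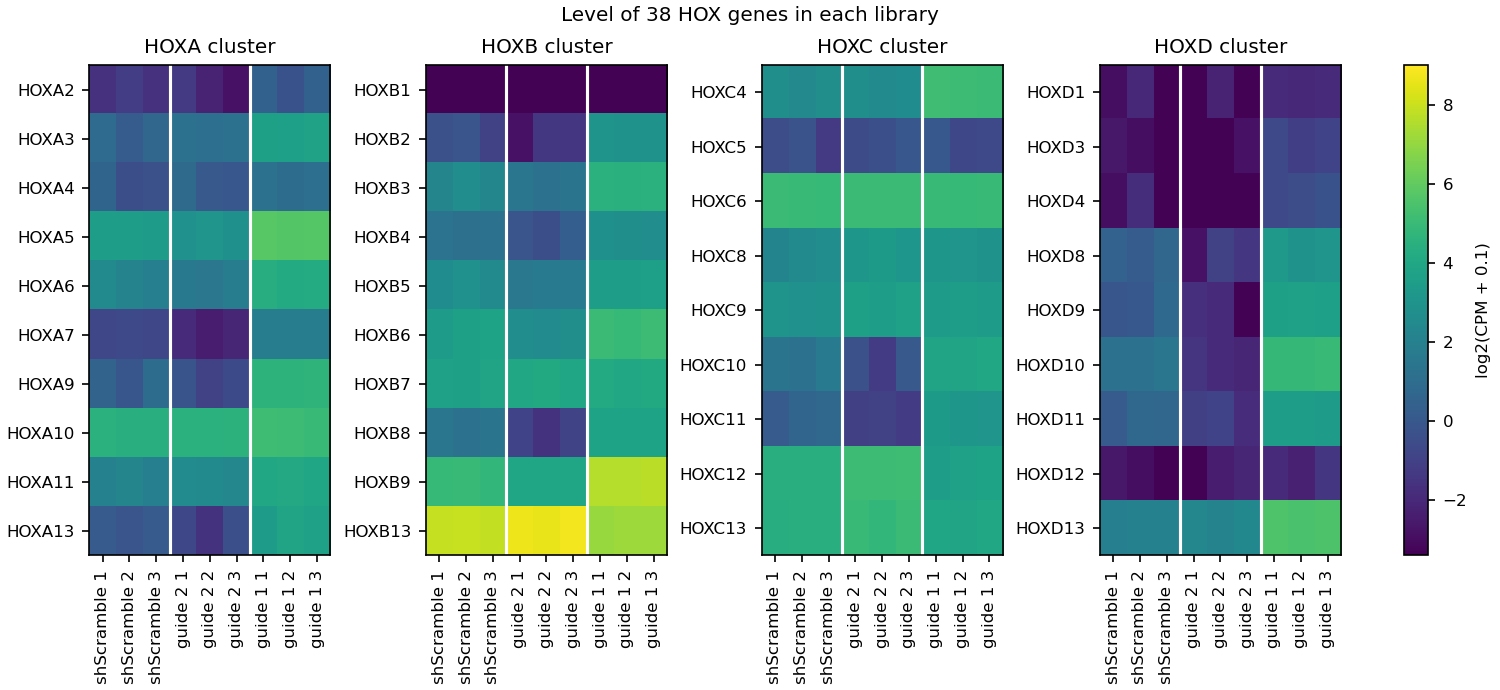
Level of 38 members in each of the 9 libraries, as log2(CPM + 0.1), by cluster from the lowest to the highest number; white lines separate shScramble, guide 2 and the libraries labelled guide 1. HOXB13 is the brightest row in shScramble and guide 2, and most rows of HOXA, HOXB and HOXD are darkest with guide 2 and brightest in the libraries labelled guide 1.

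Summed over the members of a cluster, the RPKM of HOXD was 4.50 ± 0.455 in shScramble, 2.61 ± 0.0299 with guide 2 and 47.7 ± 1.53 in the libraries labelled guide 1 (SD, n = 3), 10.6-fold above shScramble in the last. HOXA summed to 20.1 ± 1.24, 17.4 ± 0.189 and 79.5 ± 1.58 in the same order. HOXC summed to 35.3 ± 0.305, 47.6 ± 1.28 and 51.7 ± 0.691, so that both hairpin groups were higher than shScramble. HOXB summed to 99.6 ± 2.82, 140 ± 6.33 and 164 ± 4.91. This sum turned on HOXB13: without it, HOXB was lower with guide 2 (21.1 ± 0.744) than in shScramble (30.7 ± 0.469) and higher in the libraries labelled guide 1 (122 ± 4.06). In none of these comparisons with shScramble did the libraries overlap, and each gave p = 0.1 in a two-sided exact permutation test, the smallest that 3 libraries against 3 allow. Lack of overlap was common over all genes tested. Against shScramble, guide 2 libraries all lay higher for 32.5% of genes and lower for 34.1%. For the libraries labelled guide 1 these shares were 36.5% and 34.5%. The same shares stand beside each member described below as not overlapping.

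**Figure D2:**
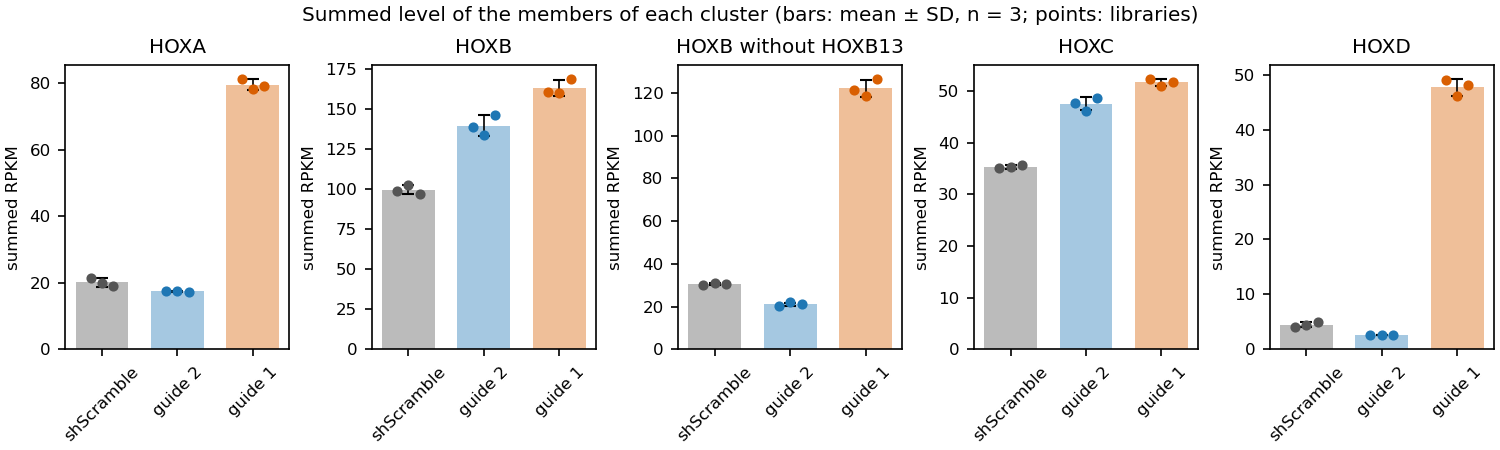
Summed RPKM of the members of each cluster, with HOXB also drawn without HOXB13; bars are means, error bars SD over 3 libraries and points single libraries. HOXD stands at 47.7 RPKM in the libraries labelled guide 1 against 4.50 in shScramble and 2.61 with guide 2, and HOXB without HOXB13 is lowest with guide 2.

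With guide 2, more HOX genes fell than rose. A gene was called changed at an adjusted p under 0.05 and at least 1.5-fold. Of the 36 members tested, 17 fell and 5 rose against shScramble, where 20.4% of all genes tested fell and 8.85% rose (29.3% in either direction). The members that rose were HOXA3, HOXB13, HOXC8, HOXC9 and HOXC12. HOXA2, HOXD3 and HOXD4 passed the count filter only because of their level in the libraries labelled guide 1. Among the 33 that pass on the shScramble and guide 2 libraries alone, 16 fell and 5 rose, with a median log2 fold change of -0.57, against -0.04 over all genes tested. That filter keeps a member with enough counts in either group. Members low with guide 2, such as HOXD9 and HOXD10, passed through their shScramble level and could not be called as rising. The shares and median over all genes are of genes that pass on all 9 libraries. These limits hold for the gene lists below as well. The scaling of the libraries bore on the direction: when libraries were scaled by their totals only, the median over all genes was -0.19, the share of called genes that rose was 17.2% instead of 30.2%, and 2 members rose, the calls of HOXA3, HOXC9 and HOXC12 being lost.

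In the libraries labelled guide 1, 29 of the 36 members were higher than in shScramble by the same test and 2 were lower (HOXB13 and HOXC12), where 21.2% of all genes tested were higher and 16.5% lower (37.7% in either direction). HOXB7, HOXC5, HOXC6, HOXC9 and HOXC13 were not called. Among the 33 members that pass without these libraries, 26 were higher and 2 lower, with a median log2 fold change of 2.08 against -0.02 over all genes. Set directly against the libraries labelled guide 1, guide 2 had 27 members lower and 3 higher (HOXB13, HOXC12 and HOXC13), or 24 and 3 among the 33, where 28.2% of all genes were lower and 19.1% higher (47.3% in either direction). The share of higher genes among those called was 40.4%, or 31.3% with library size alone. Both comparisons with shScramble use the same 3 shScramble libraries. Values from bulk RNA cannot tell apart fewer cells that express a gene and less RNA per cell.

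**Figure D3:**
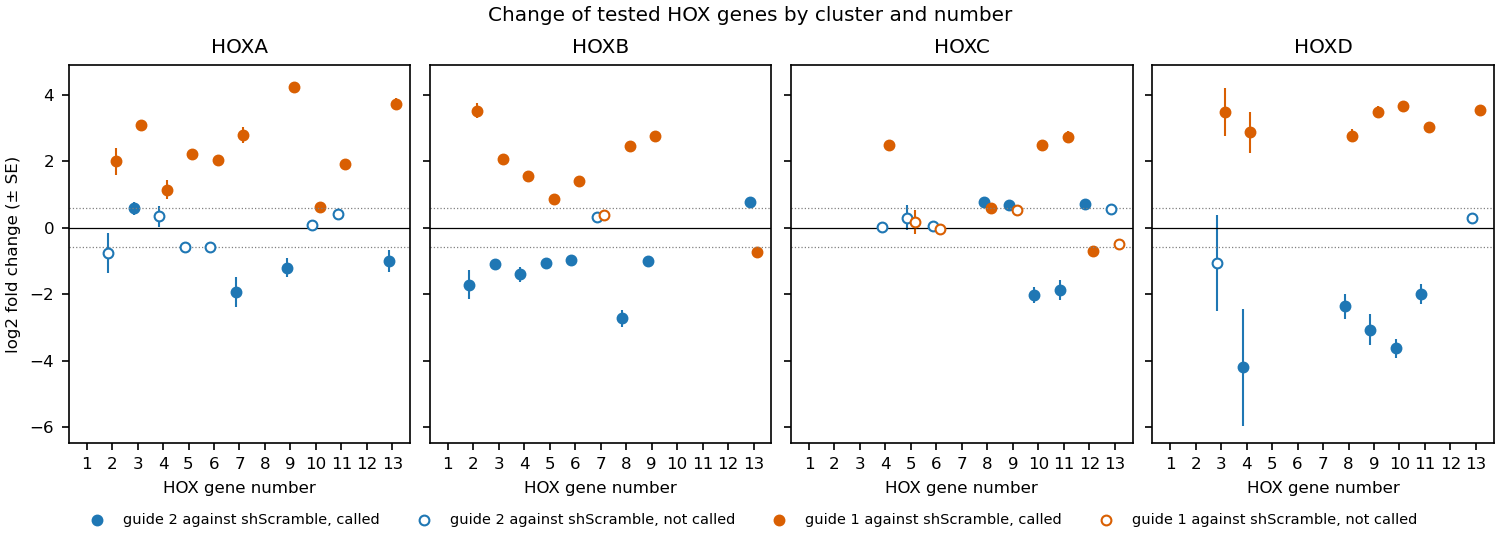
Log2 fold change (± SE, edgeR) of tested members against shScramble, by gene number within each cluster; blue is guide 2, orange the libraries labelled guide 1, filled points are called and dotted lines mark 1.5-fold. Orange points of HOXA and HOXD all lie above 0, HOXB13 and HOXC12 are blue above and orange below, and HOXD3 and HOXD4 are near the floor in shScramble and guide 2, so their points there measure no fold.

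Among the same 33 members, those numbered 1 to 3 (anterior) had 2 lower and 1 higher of 4 with guide 2, members 4 to 8 (central) had 6 lower and 1 higher of 14, and members 9 to 13 (posterior) had 8 lower and 3 higher of 15, beside the 20.4% and 8.85% of all genes. In the libraries labelled guide 1, 11 of 14 central members and 11 of 15 posterior members were higher, beside 21.2% of all genes, and both lower members were posterior. By cluster, the members that fell with guide 2 were 3 of 10 in HOXA, 7 of 9 in HOXB, 2 of 9 in HOXC and 4 of 5 in HOXD. The libraries labelled guide 1 had 7 of these members higher in HOXB, 4 in HOXC and 5 in HOXD.

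HOXD showed the widest range. HOXD10, a posterior gene of the lumbar cord and hindlimb, had 70, 71 and 60 counts in shScramble, 6, 4 and 3 with guide 2 and 812, 808 and 946 in the libraries labelled guide 1. The groups did not overlap: it fell with guide 2 (log2 fold change -3.63 ± 0.279, adjusted p = 9.52e-12) and was 12.6-fold higher in the libraries labelled guide 1 (3.66 ± 0.108, adjusted p = 2.62e-21). Its neighbour HOXD9 had 26, 29 and 39, 5, 4 and 0 and 359, 352 and 362 counts in the 3 groups, with log2 fold changes of -3.07 ± 0.462 and 3.49 ± 0.191. The guide 2 mean of HOXD9, 0.125 CPM, lay near the floor, so the size of its fall is uncertain. HOXD11, which acts with HOXA11 in forearm and kidney, had 32, 50 and 35, 9, 11 and 4 and 333, 313 and 321 counts, and it shared 21.4% of its exon bases with HOXD10. All 3 were separated between groups in the same order, guide 2 below shScramble below the libraries labelled guide 1. HOXD8 followed that order too, with 40, 34 and 34, 1, 10 and 6 and 284, 216 and 248 counts and log2 fold changes of -2.37 ± 0.375 and 2.77 ± 0.194. HOXD13, the gene of the digits and the end of the cluster, differed with guide 2: its 4.90, 4.39 and 5.12 CPM lay slightly above the 3.75, 3.99 and 3.99 CPM of shScramble and it was not called (0.29 ± 0.117, adjusted p = 0.031). In the libraries labelled guide 1, HOXD13 reached 48.6, 43.7 and 46.4 CPM, 11.8-fold above shScramble (3.56 ± 0.0876, adjusted p = 4.69e-23).

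The low-numbered end of HOXD was almost silent. HOXD3 had 2, 1 and 0 counts in shScramble, 0, 0 and 1 with guide 2 and 15, 10 and 13 in the libraries labelled guide 1. HOXD4 had 1, 6 and 0, 0, 0 and 0 and 15, 17 and 22. Both passed the count filter only through the libraries labelled guide 1, so their levels are given as a description. HOXD4 was there at least 4.86-fold above the floor of 3 counts per library with guide 2. The call of a fall of HOXD4 with guide 2 (adjusted p = 0.0394) rests on 7 counts over the shScramble libraries, 6 of them in replicate 2, and is lost without that library, so no fold is given. HOXD1 (1, 5 and 0, 0, 3 and 0 and 5, 4 and 5 counts) and HOXD12 (2, 1 and 0, 0, 2 and 3 and 5, 3 and 8) were too low to test. HOXD12 stayed near the floor between HOXD11 and HOXD13, both of which were above 10 CPM in the libraries labelled guide 1.

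In HOXB, HOXB13 changed in the other direction from the 7 members called with it. This prostate lineage factor had 239, 247 and 230 CPM in shScramble, 411, 388 and 435 with guide 2 and 138, 145 and 147 in the libraries labelled guide 1. It rose 1.72-fold with guide 2 (0.78 ± 0.0482, adjusted p = 1.06e-13) and was 1.67-fold lower in the libraries labelled guide 1 (-0.74 ± 0.0489, adjusted p = 1.53e-13), with no overlap between the groups. HOXB9, the next member along the chromosome and a gene of the thoracic skeleton, had 30.3, 30.6 and 27.8 CPM in shScramble, 14.7, 15.3 and 14.9 with guide 2 and 196, 197 and 210 in the libraries labelled guide 1. It fell 1.98-fold with guide 2 (-0.98 ± 0.0622, adjusted p = 1.77e-13) and was 6.78-fold higher in the libraries labelled guide 1 (2.76 ± 0.0523, adjusted p = 3.15e-25). Neither gene shared exon bases with another. PRAC1 and PRAC2, prostate genes that lie in the gap between them, had means of 13.8, 18.0 and 6.69 CPM and 8.95, 9.71 and 3.90 CPM. Both were lower in the libraries labelled guide 1 (-1.04 ± 0.0916 and -1.19 ± 0.146) and neither was called with guide 2 (0.39 ± 0.0834 and 0.13 ± 0.133).

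HOXB8, a myeloid and spinal cord gene, had 83, 74 and 56 counts in shScramble, 10, 6 and 10 with guide 2 and 396, 386 and 413 in the libraries labelled guide 1, with no overlap. Its log2 fold changes were -2.73 ± 0.244 (adjusted p = 1.95e-10) and 2.48 ± 0.127 (adjusted p = 5.77e-16). HOXB2, a hindbrain gene, was low in shScramble and lower with guide 2 (22, 26 and 9 and 1, 7 and 6 counts) against 225, 217 and 222 in the libraries labelled guide 1. The adjacent HOXB3 had 4.69, 6.25 and 4.86, 2.64, 2.35 and 2.45 and 22.8, 21.8 and 22.8 CPM. HOXB4, known for the expansion of blood stem cells, had 2.39, 2.20 and 2.23, 0.824, 0.638 and 1.13 and 7.09, 6.80 and 6.22 CPM. HOXB2, HOXB3 and HOXB4 fell with guide 2 by 1.71, 1.09 and 1.41 on the log2 scale, and were higher by 3.53, 2.08 and 1.55 in the libraries labelled guide 1. HOXB5 had 6.08, 7.29 and 5.70 CPM in shScramble, 2.82, 3.03 and 3.26 with guide 2 and 11.7, 11.4 and 11.9 in the libraries labelled guide 1. HOXB6 had 10.9, 12.4 and 13.6, 6.29, 5.86 and 6.62 and 32.8, 30.2 and 34.8 CPM. Both fell with guide 2 (-1.07 ± 0.137 and -0.97 ± 0.103) and were higher in the libraries labelled guide 1 (0.87 ± 0.111 and 1.41 ± 0.0836). HOXB7, in the middle of the cluster, was not called in either comparison with shScramble: 13.0, 12.4 and 14.0 CPM in shScramble, 15.5, 17.6 and 15.5 with guide 2 and 18.1, 15.8 and 17.5 in the libraries labelled guide 1, with neither difference reaching 1.5-fold (0.31 ± 0.0878 and 0.39 ± 0.0855).

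**Figure D4:**
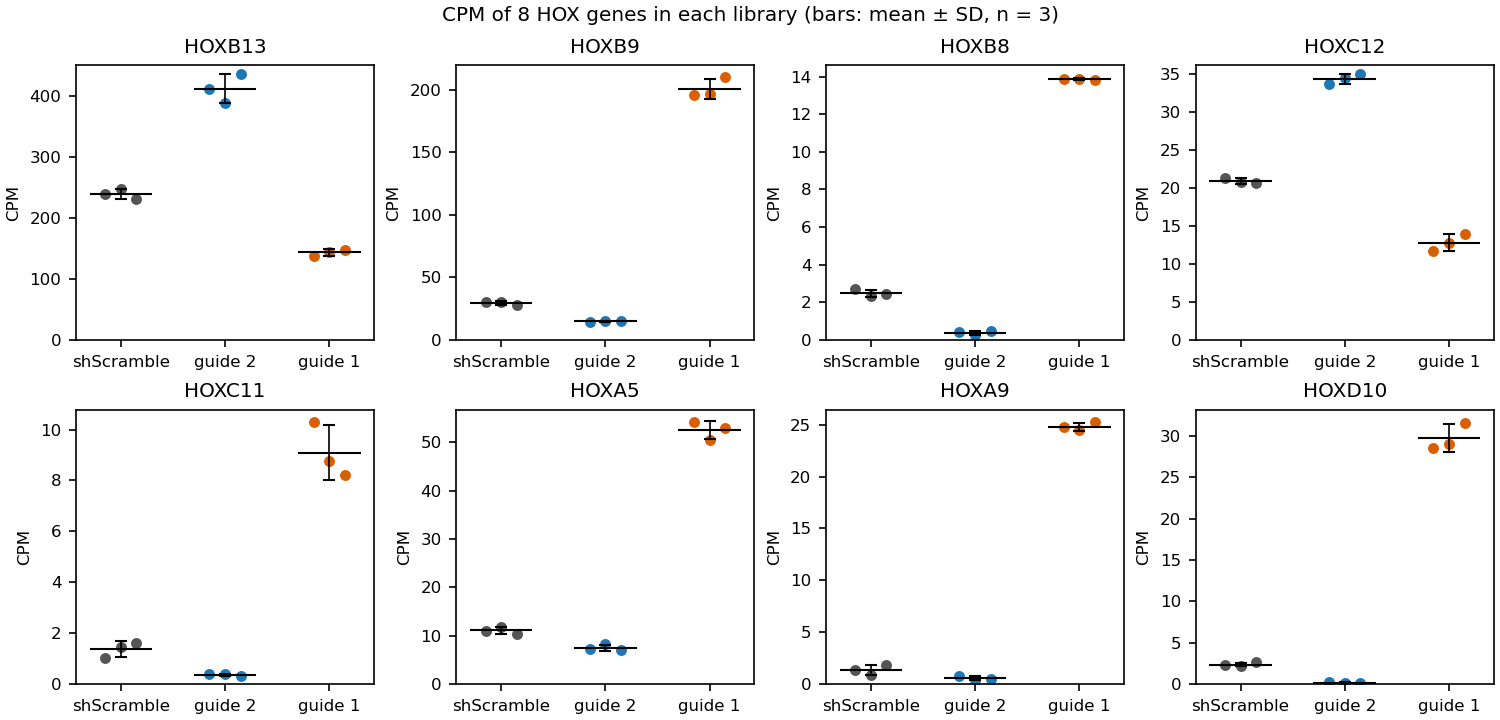
CPM of 8 members in each library (points), with the mean and SD of 3 libraries; each panel has its own axis from 0. HOXB13 and HOXC12 are highest with guide 2 and lowest in the libraries labelled guide 1, and the other 6 members are lowest with guide 2 and highest in the libraries labelled guide 1, without overlap.

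The HOXA members described here were higher in the libraries labelled guide 1 than in shScramble. HOXA9, a gene of blood progenitors, had 42, 27 and 43 counts in shScramble, 18, 10 and 12 with guide 2 and 705, 679 and 754 in the libraries labelled guide 1, where it was 18.8-fold above shScramble (4.23 ± 0.149, adjusted p = 2.01e-19), the largest fold of the 36 members. It shared 27.0% of its exon bases with other genes. HOXA13, which patterns digits and the lower urogenital tract, had 32, 26 and 23, 12, 6 and 15 and 307, 392 and 383 counts and shared none (log2 fold change 3.72 ± 0.178 in the last). HOXA7 had 15, 17 and 11, 4, 2 and 3 and 100, 98 and 104 counts. These 3 HOXA members fell with guide 2, with log2 fold changes of -1.20, -1.002 and -1.93. The guide 2 mean of HOXA7, 0.130 CPM, lay near the floor, so the size of its fall is uncertain. The call of HOXA13 is lost without guide 2 replicate 2 (-0.66).

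HOXA5, a regulator of lung development, was the most abundant HOXA member per length in the libraries labelled guide 1. It had 11.1, 11.8 and 10.5 CPM in shScramble, 7.20, 8.25 and 7.07 with guide 2 and 54.2, 50.6 and 53.0 in the libraries labelled guide 1. Its libraries with guide 2 all lay below those of shScramble, but the change was just short of 1.5-fold (-0.57 ± 0.0905, adjusted p = 4.58e-06). The same held for its neighbour HOXA6, at 5.50, 4.27 and 3.81, 2.99, 2.79 and 3.44 and 20.0, 18.0 and 18.9 CPM (-0.57 ± 0.149, adjusted p = 0.00155). Both pass 1.5-fold with library size alone (-0.72 for HOXA5 and -0.72 for HOXA6), at a minimum mean of 1 CPM (-0.62 for each) and without some single libraries (HOXA5 without shScramble replicate 3 or guide 2 replicate 2, at -0.61 and -0.64, and HOXA6 without shScramble replicate 2 or 3 or guide 2 replicate 3, at -0.63, -0.67 and -0.66), and HOXA6 also with the 6 compared libraries alone (-0.59). In the libraries labelled guide 1, HOXA5 and HOXA6 were 4.71-fold and 4.15-fold higher. HOXA10, a gene of the uterus and reproductive tract, differed least, with 22.8, 21.5 and 21.0 CPM in shScramble, 22.5, 23.0 and 23.5 with guide 2 and 35.2, 34.2 and 32.3 in the libraries labelled guide 1 (0.07 ± 0.0686 and 0.64 ± 0.0652). HOXA11 had 4.01, 4.58 and 3.81, 5.81, 5.66 and 5.03 and 15.8, 17.1 and 14.7 CPM, which was not called with guide 2 (0.41 ± 0.128).

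HOXA3, a gene of the pharyngeal arches and thymus, was called higher with guide 2, with 56, 34 and 35 counts in shScramble and 51, 52 and 52 with guide 2 (0.59 ± 0.197, adjusted p = 0.0107), against 359, 332 and 394 in the libraries labelled guide 1 (3.10 ± 0.151). The call with guide 2 is lost without shScramble replicate 2 (0.39) or guide 2 replicate 3 (0.55), with the 6 compared libraries alone (0.58), at a minimum mean of 1 CPM (0.54) and with library size alone (0.44). HOXA2 had 7, 11 and 5, 7, 3 and 1 and 36, 20 and 38 counts, and HOXA4 44, 21 and 16, 41, 24 and 19 and 67, 52 and 62. Neither of these was called with guide 2, and their libraries with guide 2 overlapped those of shScramble. In the libraries labelled guide 1, HOXA4 was higher by 1.15 on the log2 scale, and HOXA2, which passed the count filter only through these libraries, had a log2 fold change of 2.00.

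HOXC was divided along its length. Its most posterior members, HOXC12 and HOXC13, had their libraries in the order of HOXB13. HOXC12 had 21.4, 20.8 and 20.7 CPM in shScramble, 33.7, 34.5 and 35.0 with guide 2 and 11.7, 12.7 and 14.0 in the libraries labelled guide 1. It rose with guide 2 (0.71 ± 0.0702, adjusted p = 1.26e-09) and was lower in the libraries labelled guide 1 (-0.71 ± 0.0757, adjusted p = 2.94e-09). HOXC13, which drives keratin genes of hair and nail, had 19.6, 21.6 and 21.6, 31.6, 28.4 and 32.7 and 14.6, 14.0 and 16.2 CPM. The groups did not overlap, although neither difference from shScramble reached 1.5-fold (0.56 ± 0.0753 and -0.48 ± 0.0791). Guide 2 against the libraries labelled guide 1 was called for both (1.42 ± 0.0739 for HOXC12 and 1.04 ± 0.0778 for HOXC13).

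HOXC11 and HOXC10, the next members along the chromosome and genes of the lumbar cord and hindlimb, had the opposite order. HOXC11 had 32, 47 and 37 counts in shScramble, 9, 10 and 7 with guide 2 and 293, 243 and 246 in the libraries labelled guide 1. HOXC10 had 77, 73 and 73, 16, 8 and 21 and 406, 401 and 472. Both fell with guide 2 (-1.86 ± 0.301 and -2.02 ± 0.250) and were higher in the libraries labelled guide 1 (2.73 ± 0.170 and 2.50 ± 0.145, adjusted p = 3.83e-14 and 9.09e-15).

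HOXC9 and HOXC8, genes of the thoracic axis, were higher in both hairpin groups. HOXC9 had 7.96, 7.29 and 7.40 CPM in shScramble, 12.5, 11.4 and 12.8 with guide 2 and 10.4, 11.6 and 10.9 in the libraries labelled guide 1, and HOXC8 had 4.53, 5.62 and 6.31, 8.89, 10.2 and 8.66 and 8.95, 8.31 and 7.53 CPM. HOXC9 rose with guide 2 (0.69 ± 0.0992) and was not called in the libraries labelled guide 1 (0.54 ± 0.0981), while HOXC8 was called in both (0.77 ± 0.126 and 0.60 ± 0.125). The call of HOXC8 in the libraries labelled guide 1 is lost without shScramble replicate 1 (0.47) or without replicate 1 of the libraries labelled guide 1 (0.54). HOXC6, at 32.6, 31.9 and 29.6, 32.5, 33.0 and 33.0 and 30.9, 30.3 and 30.5 CPM, was the steadiest of the well-expressed members (0.07 ± 0.0611 and -0.04 ± 0.0604). HOXC4 had 6.66, 5.24 and 6.44 CPM in shScramble and 6.85, 5.62 and 6.17 with guide 2, which overlapped (0.03 ± 0.115), against 36.6, 33.7 and 33.1 in the libraries labelled guide 1 (2.50 ± 0.0934, adjusted p = 4.55e-19). It shared 17.8% of its exon bases, all with HOXC6. HOXC5 ranged from 7 to 26 counts over the 9 libraries and was called in no comparison.

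Noncoding genes of the clusters were counted apart. Of 22 found in the files, 15 were tested, 12 of which pass the count filter on the shScramble and guide 2 libraries alone. Of these 12, 6 fell and 2 rose with guide 2, and 10 were higher and 1 lower in the libraries labelled guide 1, where 20.4%, 8.85%, 21.2% and 16.5% of all genes were so called. HOTAIR, the antisense RNA between HOXC12 and HOXC11, had 37, 32 and 22 counts in shScramble, 4, 4 and 3 with guide 2 and 272, 265 and 295 in the libraries labelled guide 1 (-2.73 ± 0.350 and 3.18 ± 0.160), the order of HOXC11 and not of HOXC12. HOXD-AS2 had 19, 25 and 17, 3, 2 and 0 and 170, 219 and 191 counts, HOXA-AS2 15, 25 and 19, 2, 11 and 7 and 149, 135 and 129, and HOXC-AS2 22, 27 and 16, 3, 6 and 6 and 130, 105 and 132. These 3 antisense genes fell with guide 2 and were higher in the libraries labelled guide 1, and they shared 26.5%, 11.9% and 7.36% of their exon bases with other genes. HOXB-AS3 fell with guide 2 from 213, 166 and 156 to 50, 42 and 25 counts (-1.91 ± 0.181). The 2 that rose with guide 2 were HAGLR (49, 50 and 54 to 66, 78 and 76 counts) and HAGLROS (3, 8 and 1 to 20, 29 and 20), which overlap at the HOXD1 end. HAGLROS passed the count filter only through its guide 2 libraries, so its levels are a description. It shared 47.9% of its exon bases with HAGLR. The 1 lower in the libraries labelled guide 1 was HOXC13-AS (-0.77 ± 0.101). HAGLR, HAGLROS and HOXC13-AS are named as the exceptions, after their values were seen.

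The list of 11 TALE cofactors held TGIF1 and TGIF2 beside the PBX, MEIS and PKNOX genes. Of the 11, 2 fell with guide 2, near the 20.4% of all genes. In the libraries labelled guide 1, 7 were higher, TGIF2 (0.92) among them, where 21.2% of all genes were. MEIS2 had 36, 21 and 49 counts in shScramble, 6, 6 and 5 with guide 2 and 376, 344 and 366 in the libraries labelled guide 1 (-2.35 ± 0.425 and 3.33 ± 0.203). MEIS3 had 75, 95 and 56, 8, 2 and 9 and 165, 179 and 167 (-3.26 ± 0.305 and 1.17 ± 0.173). Both were lowest with guide 2 without overlap. PKNOX2 and MEIS1 were not called with guide 2 (0.10 and -0.34) and were higher in the libraries labelled guide 1 (2.49 ± 0.126 and 1.44 ± 0.117).

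With guide 2, few of the genes that open or close HOX chromatin were called. Of the 14 trithorax and MLL genes, 0 were called with guide 2 by edgeR or DESeq2 (median 0.23, range -0.30 to 0.41), although 8 were higher and 3 lower at an unadjusted p under 0.05, and 2 were higher and 1 lower in the libraries labelled guide 1: PSIP1 (0.66), WDR5 (0.63) and KDM6A (-0.63). Of 20 Polycomb repressive complex 1 genes, 4 were higher in the libraries labelled guide 1, led by PCGF6 (1.54 ± 0.0739) and SCML1 (1.07 ± 0.0513). Of 11 Polycomb repressive complex 2 genes, RBBP7 rose with guide 2 (0.72 ± 0.0553), and RBBP7, MTF2, PHF19 and RBBP4 were higher in the libraries labelled guide 1 (1.49, 0.98, 0.88 and 0.63). The catalytic subunit EZH2 was not called against shScramble in either (-0.16 ± 0.0498 and 0.43 ± 0.0486). Set directly against the libraries labelled guide 1, EZH2 was called lower with guide 2 (-0.59 ± 0.0493). Over all genes tested, 29.3% were called with guide 2 and 37.7% in the libraries labelled guide 1, where 21.2% were higher and 16.5% lower.

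Of 14 retinoic acid genes tested, 12 pass the count filter on the shScramble and guide 2 libraries alone. Of these 12, 5 fell with guide 2, where 20.4% of all genes fell, and 4 were higher and 1 lower in the libraries labelled guide 1, where 21.2% and 16.5% were. ALDH1A2, which makes retinoic acid, had 38, 47 and 31 counts in shScramble, 14, 18 and 22 with guide 2 and 827, 846 and 883 in the libraries labelled guide 1 (-0.81 ± 0.226 and 4.45 ± 0.119). The receptor gene RARB had 106, 102 and 84, 32, 40 and 23 and 505, 483 and 552 (-1.34 ± 0.172 and 2.38 ± 0.114). The carrier CRABP2 had 41, 44 and 26, 14, 17 and 9 and 303, 311 and 308 (-1.18 ± 0.256 and 3.04 ± 0.153). In each of these 3 the libraries were ordered guide 2, shScramble, guide 1 by label without overlap. The 1 lower in the libraries labelled guide 1 was ALDH1A1 (-0.89 ± 0.07), named as the exception after its values were seen. It averaged 34.4, 48.6 and 18.6 CPM in shScramble, guide 2 and the libraries labelled guide 1. The whole list summed to 520 to 526, 559 to 567 and 496 to 516 CPM. The median of the 14 in the libraries labelled guide 1 was 0.09. DHRS3, which turns retinal back to retinol, fell with guide 2 (-1.41 ± 0.0625) and was not called in the libraries labelled guide 1 (-0.22 ± 0.0573), and CYP26A1, which breaks retinoic acid down and passed only through those libraries, had 14, 11 and 7, 6, 3 and 3 and 62, 96 and 79 counts in the 3 groups. CDX2, a homeobox gene of the hindgut that acts upstream of HOX genes, had 48, 50 and 43 counts in shScramble, 17, 21 and 20 with guide 2 and 537, 550 and 589 in the libraries labelled guide 1 (-0.99 ± 0.212 and 3.55 ± 0.124). EVX1, which lies 42.6 kb beyond HOXA13, was lower in both (-0.61 ± 0.222 and -0.88 ± 0.221). These and PDX1 were the 3 of 8 CDX and ParaHox genes high enough to test.

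Of 21 other homeobox genes of the prostate or kidney line, 18 pass the count filter on the shScramble and guide 2 libraries alone. Of these, 4 were higher and 5 lower with guide 2, and 10 were higher and 1 lower in the libraries labelled guide 1, where 8.85%, 20.4%, 21.2% and 16.5% of all genes were so called. SATB1 had 25, 27 and 27, 8, 6 and 3 and 355, 360 and 367 counts in shScramble, guide 2 and the libraries labelled guide 1 (-1.92 ± 0.344 and 3.75 ± 0.163). PITX1, which marks the hindlimb, rose with guide 2, from 144, 150 and 141 to 462, 418 and 452 CPM (1.61 ± 0.0489), and was not called in the libraries labelled guide 1 (-0.21 ± 0.0489). SIX2 and DLX2 were higher in the libraries labelled guide 1 (3.81 and 3.19). EMX2 had 7, 12 and 2 counts in shScramble, 1, 3 and 2 with guide 2, at the floor, and 112, 110 and 124 in the libraries labelled guide 1, so no fold is given with guide 2.

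**Figure D5:**
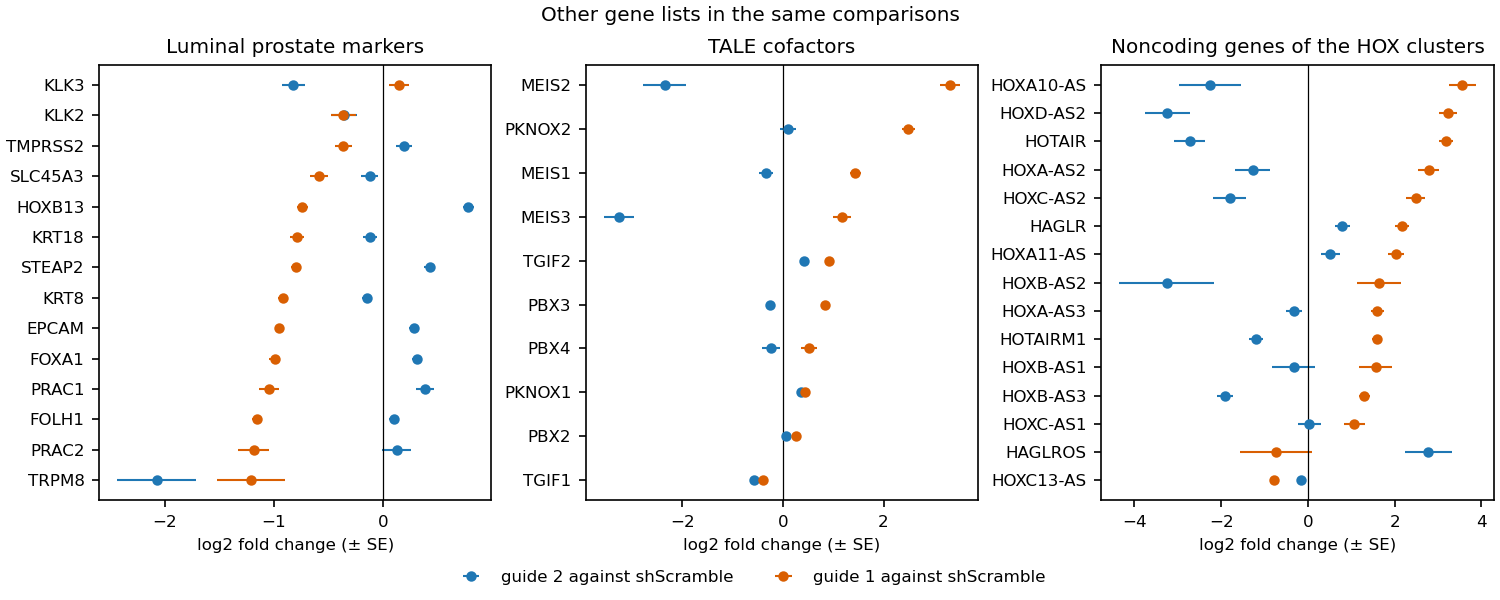
Log2 fold change (± SE, edgeR) against shScramble of luminal prostate markers, TALE cofactors and noncoding genes of the HOX clusters, ordered by the value in the libraries labelled guide 1 (orange), with guide 2 in blue. Of the 14 luminal markers drawn, HOXB13 included, 10 are lower in the libraries labelled guide 1, where 16.5% of all genes are. Of 10 cofactors drawn (TGIF1 and TGIF2 included), 6 are higher there, and 13 of 15 noncoding genes, where 21.2% of all genes are. HOXA10-AS, HOXB-AS1 and HOXB-AS2 passed the count filter only through those libraries, and without them 10 of 12 are higher.

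Protein-coding genes around the clusters showed no common direction. Of the 5 nearest on each side of each cluster, 37 of 40 were tested, COPZ2 only through the libraries labelled guide 1. Among the other 36, 5 fell and 7 rose with guide 2, and 6 were higher and 4 lower in the libraries labelled guide 1. Of all genes, 20.4%, 8.85%, 21.2% and 16.5% were so called. The medians of the 37 were 0.05 with guide 2 and 0.01 in the libraries labelled guide 1. CREB5, 1099 kb from HOXA, had 123, 141 and 91, 22, 19 and 17 and 1684, 1456 and 1585 counts in the 3 groups (-2.32 ± 0.172 and 3.73 ± 0.0869), and CHN1, 1088 kb from HOXD, had 39, 47 and 21, 9, 8 and 6 and 459, 416 and 470 (-1.91 ± 0.295 and 3.64 ± 0.145). SNX10 was higher (1.61 ± 0.121) and TTLL6 lower (-1.12 ± 0.170) in the libraries labelled guide 1, and ATP5MC1 and NFE2L3 rose with guide 2 (0.92 ± 0.0578 and 0.89 ± 0.0805).

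Markers of cell type were counted in the same comparisons. Of the 15 luminal markers other than HOXB13, 2 rose and 2 fell (KLK3 and TRPM8) with guide 2, where 8.85% of all genes rose and 20.4% fell. In the libraries labelled guide 1, 10 were lower, where 16.5% of all genes were. FOXA1 and FOLH1 were lower in the libraries labelled guide 1 (-0.99 ± 0.0475 and -1.15 ± 0.0466). Of 4 neuroendocrine markers that pass the count filter on the shScramble and guide 2 libraries alone, 2 were lower and 1 higher (ENO2, 0.91) with guide 2. In the libraries labelled guide 1, 3 were higher. Of all genes, 20.4%, 8.85% and 21.2% were so called. All 8 had summed levels of 17.0 to 18.2, 15.1 to 17.9 and 95.2 to 101 CPM. NCAM1 averaged 4.64 ± 0.882, 0.624 ± 0.274 and 55.0 ± 1.99 CPM (SD, n = 3). INSM1 averaged 0.442 ± 0.130, 0.0699 ± 0.0656 and 8.99 ± 1.64 CPM. It passed the count filter only through the libraries labelled guide 1 and its guide 2 mean lay below the floor, so its levels are a description. Stromal markers summed to 69.2 to 71.5, 42.4 to 45.7 and 158 to 193 CPM. VIM accounted for most of the last (23.1 ± 0.711, 3.56 ± 0.0475 and 153 ± 18.8 CPM), and COL1A2, DCN and LUM were at the floor in all 9 libraries. Of 5 stromal markers tested, 1 rose and 2 fell with guide 2, and 2 were higher and 2 lower in the libraries labelled guide 1. The shares of all genes were 8.85%, 20.4%, 21.2% and 16.5% in the same order. Of the 6 basal markers, 2 were tested, 1 of them only through the libraries labelled guide 1. The other, ITGA6, was not called against shScramble in either comparison. Set directly against the libraries labelled guide 1, ITGA6 was higher with guide 2 (0.85), where 19.1% of all genes were. Leukocyte and endothelial markers stayed between 2.45 and 3.90 CPM in all libraries, with PTPRC, CD3E, PECAM1 and HBB at the floor. The part of these markers, and of the smaller number of genes detected with guide 2, in the HOX differences was not tested.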

How the data were processed

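RNA-seq of 9 LNCaP:C4-2 libraries was analysed, grouped by their labels. The authors trimmed adapters (Trim Galore, cutadapt), dropped low-quality reads, aligned to Ensembl GRCh38 with STAR and counted reads per gene with featureCounts; they deposited raw counts with exon coordinates. Strand setting and treatment of multiply matching reads are not given in the sources used here. Of 60675 genes, 93.2% received a symbol, and 0 rows named no gene.

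Counts were scaled by TMM in edgeR 4.0.16 (R 4.3.3) and filtered with filterByExpr (minimum count 10, total 15), leaving 19278 genes. All 9 libraries entered 1 quasi-likelihood model without covariates. Genes were called at a Benjamini-Hochberg adjusted p under 0.05, over all genes, and at least 1.5-fold. Standard errors were taken from the log2 fold change and its F statistic. The test was checked on simulated counts. RPKM used TMM-scaled library sizes and exon lengths from the files. The floor was 3 counts: a member at the floor exceeded it in no library of that group. Shared exon bases were counted on either strand. Depth limits low members, and floors cover counting error only.

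The members and gene lists were chosen with earlier results of these data known. Values in every library are given for members called in a comparison or averaging at least 10 CPM in a group. Other lists are named by METTL3 and up to 4 called genes per comparison with the largest change at a mean of at least 1 CPM. A few genes are not reported here by name or drawn, but remain in counts and sums. Alternatives were DESeq2 1.42.0, its size factors, library size alone, other filters and thresholds (glmTreat), the compared libraries alone, members with little sharing, the replicate block and leaving out each library.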

Additional observations from a re-analysis of the deposited data

Results flagged for a closer look

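The members below were called in opposite directions against shScramble with guide 2 and in the libraries labelled guide 1. Calls were made by edgeR at an adjusted p under 0.05 and at least 1.5-fold, and both comparisons use the same 3 shScramble libraries. Members so chosen are bound to differ in the direct comparison of guide 2 with the libraries labelled guide 1. The direct values therefore give the size of the difference and are no further support. The guide 2 means of HOXA7 (0.130 CPM) and HOXD9 (0.125 CPM) lay near the floor of 0.129 CPM, so the sizes of their differences are uncertain. The share of all genes called in opposite directions is not given here. In HOXA, the direct log2 differences were -4.72 for HOXA7, -5.43 for HOXA9 and -4.72 for HOXA13. In HOXB they were -5.24 for HOXB2, -3.18 for HOXB3, -2.96 for HOXB4, -1.94 for HOXB5, -2.38 for HOXB6, -5.21 for HOXB8 and -3.75 for HOXB9. In HOXC they were -4.52 for HOXC10 and -4.60 for HOXC11. In HOXD they were -5.14 for HOXD8, -6.55 for HOXD9, -7.29 for HOXD10 and -5.02 for HOXD11. The fitted value of HOXD4, -7.08, depends on the prior count, since all guide 2 libraries had 0 counts, and is no measured fold. HOXB13 and HOXC12 differed the other way, by 1.52 and 1.42. Groups of 3 libraries were not tested for outlying libraries.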

How the results depend on the processing

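The counts of members kept within 1.5 times of their values under DESeq2 (5 higher and 16 lower with guide 2, 29 and 2 in the libraries labelled guide 1, 3 and 26 in the direct comparison). With library size alone, 2 members rose with guide 2. With glmTreat's test against 1.5-fold, 1 rose with guide 2, 1 was lower in the libraries labelled guide 1, and 3261 of all genes were called with guide 2. With the adjusted p alone, 9 members rose with guide 2, and 11910, 13188 and 14386 of all genes were called in the 3 comparisons. Only 21 members had under 10% of exon bases shared. Of these, 9 fell with guide 2, 14 were higher in the libraries labelled guide 1 and 13 were lower in the direct comparison. Fewer members are counted here, and the part of shared exon bases in the drop was not tested. Leaving out 1 library at a time gave 4 to 6 members higher and 16 to 19 lower with guide 2, 28 to 29 higher and 2 lower in the libraries labelled guide 1, and 3 higher and 26 to 28 lower in the direct comparison; over all genes it gave 5314 to 5625, 7040 to 7269 and 9074 to 9362 calls.

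Only members that were not called turned direction, all at small values; the cause was not tested. With guide 2, HOXA4 ranged from -0.043 (without guide 2 replicate 1) to 0.82 (without shScramble replicate 1) and HOXC4 from -0.083 (without shScramble replicate 2) to 0.106 over libraries left out; HOXA10, HOXC4 and HOXC6 gave -0.075, -0.124 and -0.085 with library size alone; and HOXC4 gave -0.022 at a minimum mean of 1 CPM. HOXC5 in the libraries labelled guide 1 ranged from -0.141 (without their replicate 1) to 0.435 over libraries left out. In the direct comparison HOXC5 ranged from -0.008 (without replicate 2 of the libraries labelled guide 1) to 0.452 over libraries left out, and with library size alone HOXC5 gave -0.004 and HOXC6 -0.032. Scaling by library size alone also moved the summed RPKM of HOXB with guide 2 from 140 to 131. HOXD4 with guide 2 lost its call under DESeq2, the replicate block and without shScramble replicate 2 or any guide 2 library.

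Same-numbered libraries did not deviate together (correlations of deviations -0.0981 to 0.0529), so the numbers do not pair them. With the replicate block, 5 members rose and 16 fell with guide 2, 29 were higher and 2 lower in the libraries labelled guide 1, 3 were higher and 27 lower in the direct comparison, and 5494, 7140 and 9027 of all genes were called.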

Other observations

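Members with the same number in different clusters are paralogues, so their levels per length can be set side by side. In group 13, HOXB13 and HOXC13 had 68.9 ± 2.48 and 8.65 ± 0.470 RPKM in shScramble (mean ± SD, n = 3), 119 ± 6.76 and 12.7 ± 0.928 with guide 2 and 41.3 ± 1.47 and 6.16 ± 0.452 in the libraries labelled guide 1. HOXA13 and HOXD13 had 0.187 ± 0.0234 and 1.75 ± 0.0605 RPKM in shScramble, 0.0943 ± 0.0439 and 2.14 ± 0.169 with guide 2 and 2.47 ± 0.330 and 20.6 ± 1.08 in the libraries labelled guide 1. HOXB13 was the highest of the 4 paralogues in every group, while the order of HOXC13 and HOXD13 was exchanged in the libraries labelled guide 1.

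In group 9, HOXB9 had 11.5 ± 0.608 RPKM in shScramble, 5.80 ± 0.121 with guide 2 and 77.8 ± 3.05 in the libraries labelled guide 1. HOXC9 had 4.50 ± 0.214, 7.29 ± 0.461 and 6.53 ± 0.368 RPKM, and was above HOXB9 with guide 2 and far below it in the libraries labelled guide 1. HOXA9 (0.450 ± 0.171, 0.190 ± 0.0636 and 8.19 ± 0.130) and HOXD9 (0.617 ± 0.258, 0.0671 ± 0.0601 and 6.66 ± 0.164) were the lowest of the group in shScramble and with guide 2. HOXD9 lay beside HOXC9 in the libraries labelled guide 1, and HOXA9 above both. In group 10, HOXA10 led in shScramble and with guide 2 (5.88 ± 0.247 and 6.20 ± 0.139 RPKM), whereas HOXD10, at 0.882 ± 0.0821 and 0.0688 ± 0.0245 RPKM there, reached 11.1 ± 0.620 in the libraries labelled guide 1, above the 9.14 ± 0.399 of HOXA10. HOXC10 had 1.14 ± 0.204, 0.281 ± 0.137 and 6.36 ± 0.360 RPKM. These levels are a description, and differences between paralogues were not tested.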
